A study of Mus musculus with 9 samples.

Results

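The comparison described here is between mouse pre-B cells to which the transcription factor IRF4 had been returned and the same kind of cells without it, both kept in high IL-7. It uses 6 of the 9 expression arrays of the study, 3 titled with IRF4 and 3 with high IL-7 only. It covers 12828 genes out of 18193 that have a probe set of their own on the array. All cells, controls included, were labelled with the genotype IRF4,8 -/-, which names both factors as lost on both sides. They grew in OptiMEM with fetal calf serum, and IL-7 was labelled as 5 ng in both groups. The other 3 arrays came from cells in low IL-7, labelled as 0.25 ng, and stand beside the comparison only where they add to it. The labels give some of these amounts per millilitre and some per microlitre, so no concentration is stated. The labels do not say how IRF4 was put back and name no group treated alike without IRF4, so the effect of IRF4 and that of the procedure cannot be told apart. Separate cultures or animals are not named for the replicates, so the p-values reflect array-to-array spread that may be technical.

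Pre-B cells are the B lymphocyte precursors that have a rearranged immunoglobulin heavy chain and go on to rearrange a light chain. IL-7 keeps them dividing, and signals through the pre-B receptor, made of the heavy chain and a surrogate light chain, help them leave that state. IRF4 and its relative IRF8 bind DNA weakly alone and strongly beside the ETS factors PU.1 and SPI-B, at a composite sequence in which an ETS site is followed by an IRF site. They are known for activating the kappa and lambda light-chain loci, and cells without both factors stall at the pre-B stage.

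Values are linear intensities from the deposited table, and differences are on the scale of log2(intensity + 16), IRF4 minus high IL-7, with the standard error (SE) of a limma fit over all 9 arrays. A gene was called at a Benjamini-Hochberg adjusted p under 0.05. The median intensity of an array lay between 139.7 and 151.3, and the number of arrays limits the precision. Replicates of the 3 groups correlated with r from 0.9864 to 0.9961. Some arrays stood apart within their groups. High IL-7 replicate 1 and IRF4 replicate 3 had a low 18S ribosomal signal, 6.53 and 6.41 on the log2 scale against 7.70 to 8.49 in the rest. High IL-7 replicates 2 and 3 and IRF4 replicate 1 carried more RNA of fibroblast markers. The 17 tested fibroblast and stroma markers summed to 15260, 47370 and 31140 in the high IL-7 arrays and to 35390, 14200 and 15410 in the IRF4 arrays. By limma's test 0 of the 17 were called and 1 had an unadjusted p under 0.05, while their median difference was -0.998 against -0.00795 over all genes.

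The labelled agent was read first. The dimmer of the Irf4 probe sets gave 381, 202 and 261 in the high IL-7 arrays and 1088, 1379 and 2543 in the IRF4 arrays. Every IRF4 array was above every control array, with a difference of 2.45 ± 0.28 and an adjusted p of 0.000861 over all probe sets. The brighter Irf4 probe set went the other way. It gave 5791, 4719 and 4964 in the high IL-7 arrays and 3709, 3702 and 4256 in the IRF4 arrays, a difference of -0.40 ± 0.09. Its adjusted p was 0.0438 over all probe sets and 0.0335 over genes, and the call was lost in 11 of 21 alternatives. Among these were the fits that left out high IL-7 array 1 or 3, that left out IRF4 replicate 1 or 2, and each fit that left out a low IL-7 array. It was well lit in cells labelled null, and the labels do not say which part of Irf4 is deleted or where either probe set lies relative to it. Irf8, which is labelled as lost in both groups, gave 3153, 2756 and 2715 in the high IL-7 arrays and 3040, 2170 and 1966 in the IRF4 arrays, which overlap. The difference, -0.29 ± 0.14, did not pass the test (adjusted p = 0.382). A second Irf8 probe set gave 3405, 2250 and 2421 against 3120, 1966 and 2034. Both probe sets were thus well lit in every array of cells labelled as lacking Irf8. Which part of Irf8 is deleted, and where they lie relative to it, is not given in the labels. Of the other tested members of the family, Irf2 had 0.43 ± 0.12 and Irf9 0.51 ± 0.30, and none of Irf1, Irf2, Irf3, Irf5, Irf7 and Irf9 was called.

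A small set of genes differed between the IRF4 and high IL-7 arrays, with more higher than lower. Of 12828 genes, 376 were called, which is 2.93%. The rises numbered 246, or 1.92%, and the falls 130, or 1.01%. These shares over all genes are the background for the counts of each gene list below. At a change of at least 2-fold there were 82 rises and 23 falls. The median called rise was 0.717 and the median called fall -0.646. In every called gene the 3 IRF4 arrays and the 3 control arrays did not overlap, as they also did not in 2692 genes in all, or 21% of those tested. The count of called genes ran from 191 without IRF4 replicate 2 and 204 without high IL-7 replicate 3 to 615 without IRF4 replicate 1, in which case 267 rose. A fit on the 6 arrays alone called 222. Losses of calls are given below mostly by array left out, and other alternatives ended some of the same calls. The plot of differences against level shows the rises spread over all levels, with Igkv8-30 and Mycn apart from the rest.

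**Figure D1:**
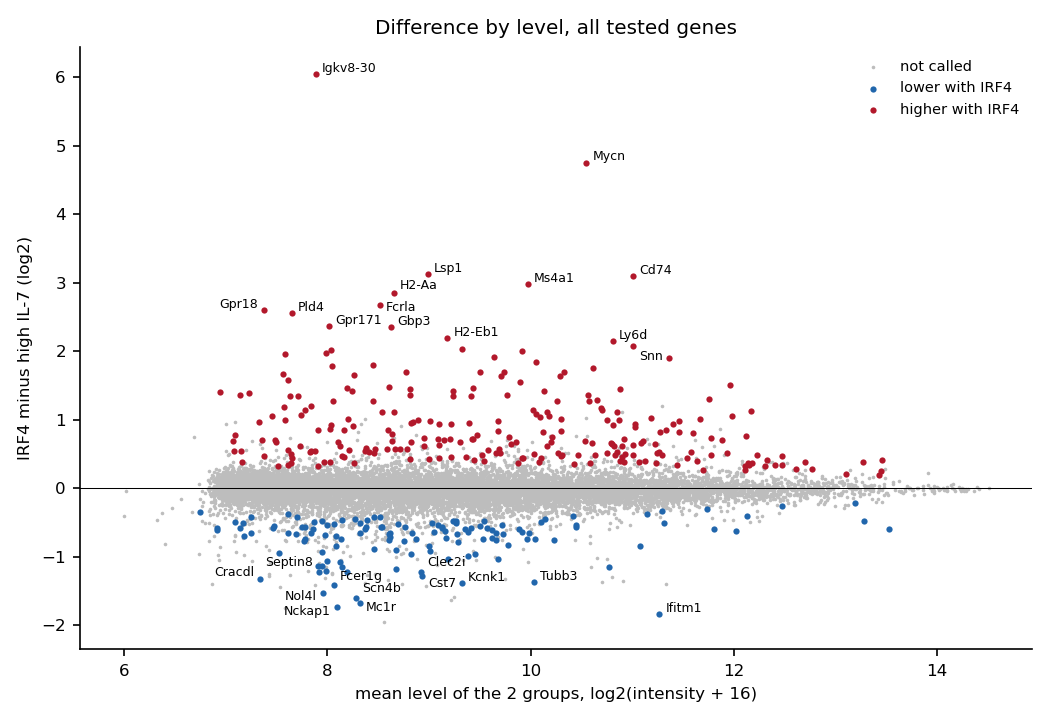
Difference between IRF4 and high IL-7 arrays (log2 scale, vertical) against the mean level of both groups (log2 of intensity plus 16, horizontal) for 12828 genes. Red points are the 246 called rises, blue points the 130 called falls and grey points the genes not called, and the 14 largest rises and 12 largest falls are named.

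Of the genes of MHC class II antigen presentation, 5 of 14 tested rose, against 1.92% of all genes. Among the 5 were Cd74 and the alpha and beta chains H2-Aa, H2-Eb1 and H2-Ab1. Class II molecules are alpha-beta pairs that show peptides to CD4 T cells, and B cells build them up as they mature. Cd74, the invariant chain that escorts new class II molecules, gave 580, 959 and 585 in the high IL-7 arrays and 4279, 6778 and 7427 in the IRF4 arrays. The groups lay far apart, at 8.54-fold (3.09 ± 0.25, adjusted p = 6.76e-05). The alpha chain H2-Aa gave 116, 166 and 124 in the controls and 782, 1597 and 970 with IRF4. It too was separate in every array, 7.23-fold higher (2.85 ± 0.24, adjusted p = 7.83e-05), and its other probe sets above the intensity filter, 1438858_x_at and 1452431_s_at, had differences of 2.62 and 1.97. H2-Eb1, a beta chain, went from 213, 326 and 240 to 1003, 1731 and 1052, which is 4.56-fold (2.19 ± 0.22, adjusted p = 0.000267). Another beta chain, H2-Ab1, rose less, from 331, 320 and 284 to 498, 782 and 598 (0.95 ± 0.14, adjusted p = 0.00404). H2-DMa, a subunit of the peptide exchanger that loads class II, rose from 142, 139 and 115 to 230, 380 and 293 (1.08 ± 0.15, adjusted p = 0.00245).

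In this list none fell, 14 of 14 had a difference above 0, and the median was 0.405. Regulators of the family are on the list too. Ciita, the coactivator that class II transcription depends on, gave 154, 148 and 138 in the controls and 171, 198 and 255 with IRF4, and its difference of 0.44 ± 0.13 did not pass the test (adjusted p = 0.123). Rfx5, Rfxank and Rfxap, subunits of the factor that binds class II promoters, had 0.11, 0.08 and 0.02, and Nfyc, a subunit of the CCAAT-binding factor, had 0.14. H2-Ob, part of an inhibitor of the peptide exchanger, had 0.72 ± 0.18 and missed the threshold (adjusted p = 0.0634), while H2-Eb2 had 0.22 and H2-Oa 0.05. The probe sets of H2-DMb2 differed: the brightest had 0.37, another 0.36, and 1419744_at rose from 110, 101 and 95.8 to 199, 290 and 220 (1.08 ± 0.14, adjusted p = 0.00198 over all probe sets). Averaged over its probe sets the gene had 0.60 and was called (adjusted p = 0.00892). In low IL-7 none of the 5 risen genes was called. Their differences from high IL-7 were -0.59 for Cd74, 0.27 for H2-Aa, 0.29 for H2-Eb1, -0.10 for H2-Ab1 and -0.22 for H2-DMa. Over all 14 genes, however, low IL-7 had 3 called rises and 0 falls, with a median of 0.0844. H2-Ob moved more there than with IRF4. It gave 377, 482 and 416 in the controls and 1461, 1722 and 2066 in low IL-7, a difference of 1.99. The direct contrast of IRF4 with low IL-7 gave 3.69 for Cd74 (adjusted p = 2.42e-06) and 2.58 for H2-Aa (adjusted p = 1.63e-05).

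Class II promoters carry a CCAAT box, the site of the NF-Y factor, close to the start of transcription, and 4 members are shown because they share that letter pattern while the differences of their brightest probe sets run from 2.85 to 0.37. The sequences are the 130 bases before the start in RefSeq's GRCm38.p6, on the gene's own strand, and capitals mark ATTGG or its complement CCAAT. H2-Aa lies at chr17:34287824-34287953 on the minus strand, and H2-Eb1 at chr17:34305737-34305866, H2-Ob at chr17:34238775-34238904 and H2-DMb2 at chr17:34145119-34145248 on the plus strand.
H2-Aa: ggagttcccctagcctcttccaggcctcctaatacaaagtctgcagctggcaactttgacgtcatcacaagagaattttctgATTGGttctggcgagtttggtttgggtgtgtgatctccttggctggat
H2-Eb1: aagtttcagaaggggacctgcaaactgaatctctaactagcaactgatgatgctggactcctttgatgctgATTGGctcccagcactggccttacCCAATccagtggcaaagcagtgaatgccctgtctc
H2-Ob: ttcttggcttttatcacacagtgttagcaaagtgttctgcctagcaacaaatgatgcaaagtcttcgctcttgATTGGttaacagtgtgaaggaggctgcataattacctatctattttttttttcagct
H2-DMb2: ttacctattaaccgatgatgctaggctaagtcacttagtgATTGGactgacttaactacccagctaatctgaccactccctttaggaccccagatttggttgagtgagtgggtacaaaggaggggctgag
The first match began 48 bases before the start in H2-Aa, 59 in H2-Eb1, 57 in H2-Ob and 90 in H2-DMb2. The pattern of 5 letters is common: it was found on either strand in 42.4% of the 10361 tested genes with a promoter in the table, in 47.3% of 186 called rises and in 38.5% of 109 called falls.

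Enzymes of the class II pathway were measured too. Ctss, the cathepsin that trims the invariant chain in B cells, gave 1038, 1201 and 841 in the controls and 2255, 2677 and 2590 with IRF4. The arrays were separate, at 2.44-fold (1.29 ± 0.14, adjusted p = 0.000388), and low IL-7 minus high IL-7 was -0.72. Ctsh, another cathepsin, went from 78.8, 127 and 116 to 263, 291 and 171 (1.05 ± 0.19). The means of high and of low IL-7 lay below the filter, so it passed only through the IRF4 arrays and its p is not read, and its call was lost without IRF4 replicate 2 and on the 6 arrays alone. Ifi30, a thiol reductase of the same compartment, had 1.19 ± 0.32 and was not called (adjusted p = 0.0883). Of 16 cathepsin and lysosome genes tested, 2 were called rises, Ctss and Ctsh, against 1.92% of all genes. With the p of Ctsh not read, this leaves Ctss, and the list's median was 0.0956. Of 15 tested class I genes, 0 were called by limma's test and 3 had an unadjusted p under 0.05, with a median of 0.0898.

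**Figure D2:**
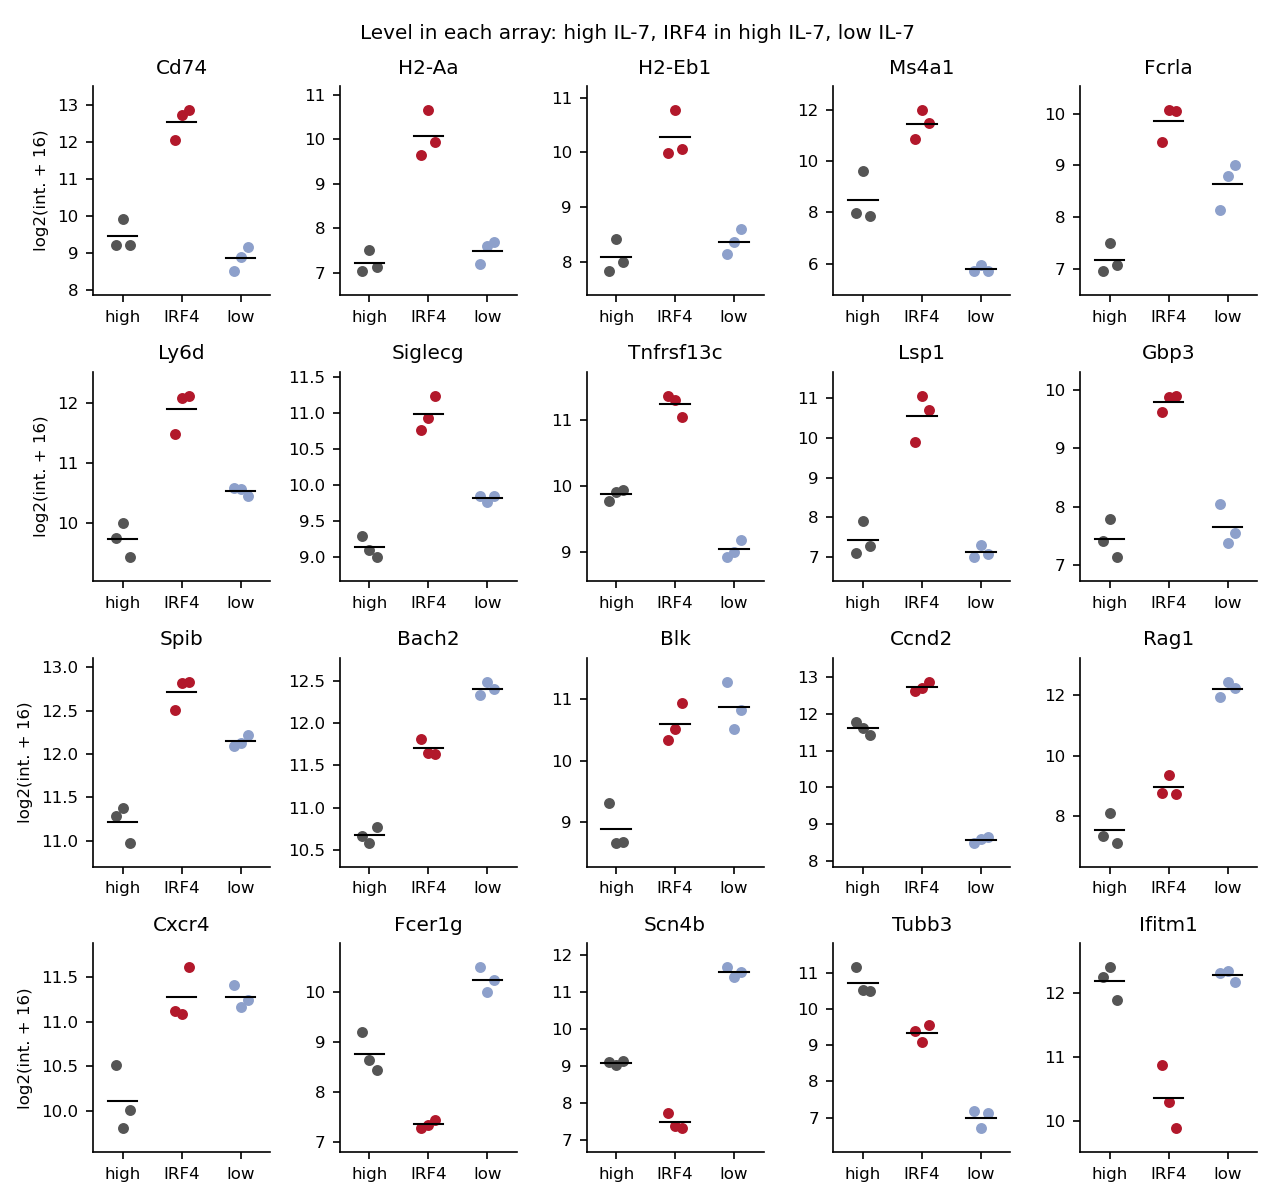
Level of 20 genes on each of the 9 arrays, as log2 of intensity plus 16, with each panel on its own scale. Dark points are high IL-7, red points IRF4 in high IL-7 and light blue points low IL-7, and bars are means of 3 arrays. Cd74, H2-Aa and H2-Eb1 are high in the IRF4 arrays only, whereas Rag1 and Bach2 are highest in the low IL-7 arrays and Ccnd2 and Ms4a1 lowest there.

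Surface molecules of maturing B cells made up the list with the largest share of calls. Of 21 tested, 11 rose and 2 fell, against 1.92% and 1.01% of all genes, and the median was 0.481. Without IRF4 replicate 2 the rises numbered 7. Ms4a1, which encodes CD20, gave 237, 764 and 216 in the controls and 1847, 4082 and 2904 with IRF4. High IL-7 replicate 2 was well above the other controls but below every IRF4 array, and the rise was 7.86-fold (2.97 ± 0.41, adjusted p = 0.00245). In low IL-7 it was at 36.9, 45.6 and 36.3. Fcrla, an Fc receptor-like protein kept inside B cells, went from 108, 165 and 118 to 680, 1058 and 1043, 6.40-fold higher (2.68 ± 0.24, adjusted p = 0.000124). Ly6d, a marker of B cell commitment in lymphoid progenitors, went from 849, 1009 and 678 to 2834, 4292 and 4411, 4.45-fold higher (2.15 ± 0.18).

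Receptors that restrain or sustain B cells were among them. Siglecg, an inhibitory lectin, gave 613, 531 and 497 in the controls and 1727, 1932 and 2392 with IRF4, with no overlap (1.84 ± 0.12, adjusted p = 2.87e-05). Tnfrsf13c, the receptor through which BAFF keeps mature B cells alive, went from 860, 947 and 970 to 2632, 2512 and 2112 (1.37 ± 0.11, adjusted p = 6.76e-05), while low IL-7 minus high IL-7 was -0.84. Its relative Tnfrsf13b, or TACI, rose by 0.83 ± 0.09. The other called members were Fcmr, the IgM Fc receptor, with 1.57, Btla with 1.35, the inhibitory Fc receptor Fcgr2b with 1.06, Cd22 with 0.64 and Cd53 with 0.48. The calls of Btla, Cd53 and Cd22 were lost without IRF4 replicate 2, those of the first pair also without high IL-7 replicate 3, at adjusted p up to 0.0679. That of Fcgr2b was lost without high IL-7 array 1 or 3, IRF4 replicate 2 or 3 or low IL-7 array 2 or 3, at adjusted p up to 0.206. In both Fcmr and Ctsh the high IL-7 group lay below the intensity filter of 106.5, so that the size depends on the added 16. The 2 members that fell were Cd72, an inhibitory coreceptor, from 3059, 3063 and 2923 to 2233, 2257 and 1882 (-0.51 ± 0.08, adjusted p = 0.00826), and Cd69, an early activation marker (-0.46 ± 0.11, adjusted p = 0.0472). The latter call was lost without any high IL-7 array, IRF4 replicate 2 or 3 or low IL-7 replicate 3, at adjusted p up to 0.194. Cd40, Cd44, Cr2 and Cd24a had differences of 0.22, 0.13, 0.13 and -0.01, none called.

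Signalling proteins just below the receptor rose in part. Of 20 tested, 6 rose, against 1.92% of all genes, and none fell, with a median of 0.212. Blk, a Src-family kinase of B cells, gave 621, 392 and 396 in the controls and 1267, 1449 and 1942 with IRF4. The arrays did not overlap, at 3.25-fold (1.70 ± 0.23, adjusted p = 0.00223). Syk, the kinase recruited to the phosphorylated receptor, went from 2464, 1943 and 1654 to 3364, 4108 and 4471 (0.98 ± 0.14, adjusted p = 0.00311). Of its other probe sets, 1418262_at had 0.87, 1425797_a_at 0.77 and 1457239_at -0.12. Pik3ap1, an adaptor of PI3 kinase, rose by 1.14 ± 0.15 (0.41 and not called on a second probe set), the guanine exchange factor Vav3 by 0.91 ± 0.14, protein kinase C beta (Prkcb) by 0.89 ± 0.10 and Themis2, an adaptor, by 0.65 ± 0.12. The call of Themis2 was lost without high IL-7 replicate 3 or IRF4 replicate 2 or 3, at adjusted p up to 0.0959. It was also lost on the 6 arrays alone and without both arrays of low 18S signal. Blnk, the adaptor downstream of Syk, gave 4062, 3792 and 3782 against 4596, 4550 and 4081 and was not called (0.18 ± 0.06, adjusted p = 0.164), nor was Btk at 0.13.

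Most of the receptor's own chains were not called. The surrogate light chain genes Igll1 and Vpreb1 had -0.20 ± 0.09 (adjusted p = 0.308) and -0.15 ± 0.07 (adjusted p = 0.321). Vpreb3, a related chain that stays inside the cell, did rise and went from 3914, 3238 and 3133 to 5685, 5853 and 5855 (0.76 ± 0.08, adjusted p = 0.000312). Of the signalling pair, Cd79b rose by 0.47 ± 0.08 (adjusted p = 0.0115) and Cd79a had 0.22 ± 0.25. The call of Cd79b was lost without IRF4 replicate 2 and on the 6 arrays alone, at adjusted p up to 0.0599. Ighm, the heavy chain, had 0.23 ± 0.05 with an adjusted p of 0.0508. So 2 of 6 tested genes of the pre-B receptor rose, against 1.92% of all genes. Igll1, a defining marker of the labelled cell type, was well lit, at 12895, 10836 and 11076 in the controls and 11148, 9635 and 9463 with IRF4.

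A kappa light-chain segment lay below the intensity filter in every array without IRF4 and well above it with IRF4. The probe set named Igkv8-30 gave 18.5, 11.4 and 10.3 in the high IL-7 arrays and 1341, 1893 and 2710 with IRF4. Every IRF4 array was far above each control, with a fitted difference of 6.04. The high and low IL-7 arrays lay below the intensity filter, so the probe set passed it only through the IRF4 arrays, and its p is not read. The size depends on the added constant, with 7.09 after adding 1 and 4.67 after adding 64. Its name ends in x_at, the array maker's mark for probes that can bind related sequences, so kappa segments may not be told apart here. In low IL-7 the probe set was 0.95 above high IL-7, and IRF4 was 5.08 above low IL-7. The brightest probe sets of the other tested light-chain rows did not pass the test, Igk with 0.17 ± 0.12 and the lambda segment Iglv1 with 0.03 ± 0.09. Other probe sets of both did. For Igk, 1425738_at rose from 104, 114 and 115 to 195, 187 and 159 (0.63 ± 0.09, adjusted p = 0.00422 over all probe sets), and the mean of its probe sets had 0.36 and was called. For Iglv1, 1430523_s_at, which lies below the filter, went from 81.0, 91.3 and 78.2 to 129, 151 and 153 (0.69 ± 0.09, adjusted p = 0.00169). Not called were the heavy-chain rows Igha (0.07), Ighg3 (0.05) and Ighv14-2 (0.25). Of 4 heavy-chain genes 0 were called by limma's test, and 2 had an unadjusted p under 0.05.

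The recombination machinery moved unevenly. Rag1, which with Rag2 cuts the gene segments, gave 148, 259 and 124 in the controls and 423, 639 and 406 with IRF4. The groups were separate, at 2.67-fold (1.42 ± 0.25, adjusted p = 0.0113). That call was lost when both arrays of low 18S signal were left out (adjusted p = 0.058). Rag2 gave 133, 134 and 146 against 184, 201 and 139, which overlap, and was not called (0.30 ± 0.12, adjusted p = 0.292). Lig4, the ligase that closes the breaks, rose from 396, 393 and 448 to 791, 929 and 712 (0.94 ± 0.12, adjusted p = 0.0016). Rag1 and Lig4 were the 2 called rises among 13 tested genes, against 1.92% of all genes, and the list's median was 0.0279. In low IL-7 the same genes stood higher above high IL-7, Rag1 by 4.67, Rag2 by 3.37 and Lig4 by 2.03, and the direct contrast put IRF4 below low IL-7 by -3.25, -3.07 and -1.09, each called.

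Of the transcription factors of the B lineage, 8 of 33 tested rose, against 1.92% of all genes, and none fell, with a median of 0.138. Without both arrays of low 18S signal 5 rose. Spib, an ETS factor and a DNA-binding partner of IRF4, gave 2482, 2643 and 1999 in the controls and 5788, 7219 and 7281 with IRF4. All IRF4 arrays exceeded all controls, at 2.84-fold (1.51 ± 0.11, adjusted p = 5.09e-05). Spi1, which encodes the other partner PU.1, gave 888, 591 and 543 against 683, 641 and 814 and was not called (0.11 ± 0.16, adjusted p = 0.825). Bach2, a repressor that keeps B cells from becoming plasma cells, rose from 1610, 1523 and 1731 to 3591, 3195 and 3171 (1.03 ± 0.08, adjusted p = 5.18e-05), as did a second probe set with 1.08, while another had 0.33 and was not called. Mef2c, a factor downstream of receptor signals, rose by 0.99 ± 0.09, Aff3 by 1.01 ± 0.10, Bcl11a by 0.63 ± 0.11 and Pou2af1, a coactivator of octamer-binding factors, by 0.22 ± 0.04. The call of Bcl11a was lost when both arrays of low 18S signal were left out (adjusted p = 0.0518). That of Pou2af1 was lost without any high IL-7 array, IRF4 replicate 1 or 3 or low IL-7 replicate 2, at adjusted p up to 0.16.

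Ikzf1, which encodes Ikaros, a factor known to oppose IL-7-driven growth of pre-B cells, gave 2685, 2733 and 2683 in the controls and 4297, 4672 and 4587 with IRF4. The replicates of each group lay close together and apart from the other group (0.74 ± 0.06, adjusted p = 9.42e-05), though a second probe set had 0.35 and was not called. Ikzf3, encoding Aiolos, had 0.18 ± 0.10 and was not called (adjusted p = 0.467). The founding factors of the lineage showed little: Pax5 had -0.02, Ebf1 0.18 and Foxo1 0.25, none called. Sox4 rose by 0.38 ± 0.07, with the call lost without high IL-7 replicate 3 or IRF4 replicate 2 or 3, at adjusted p up to 0.109. Of the factors of plasma cells and germinal centres, Prdm1 had -0.36 ± 0.13, Xbp1 -0.33 ± 0.08 and Bcl6 -0.19 ± 0.18, and none of these passed the test. Ell2, an elongation factor known from plasma cells, was the 1 called rise among 13 tested, beside the fall of the brighter Irf4 probe set, going from 196, 276 and 215 to 947, 730 and 660 (1.69 ± 0.15, adjusted p = 0.000118).

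**Figure D3:**
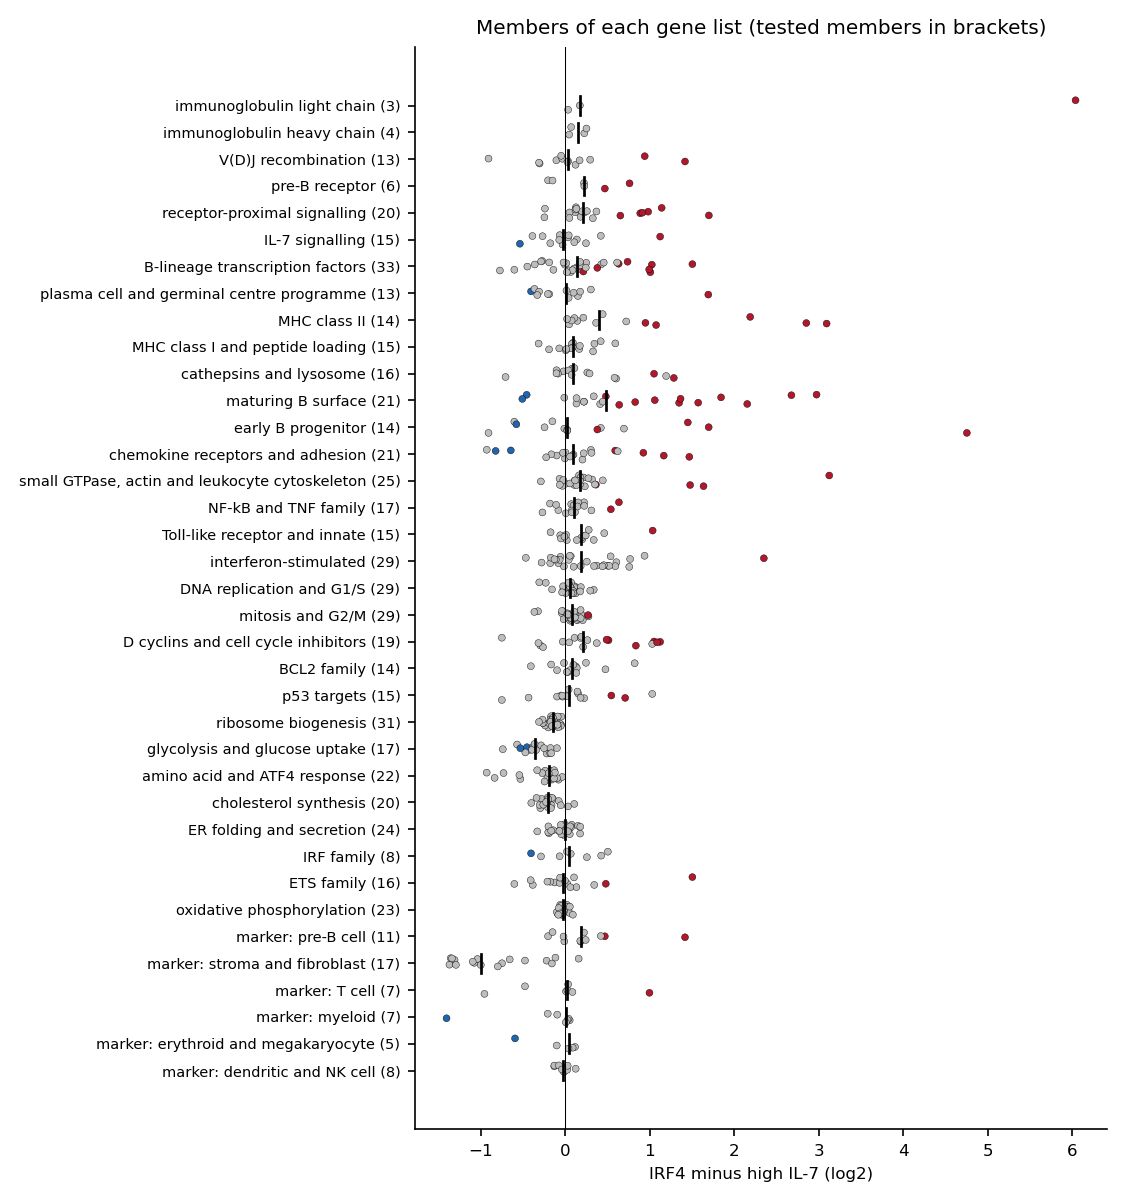
Differences of the tested members of 37 gene lists, IRF4 minus high IL-7 on the log2 scale, 1 point per gene. Red points are called rises, blue points called falls, grey points genes not called and black bars list medians. MHC class II and maturing B surface genes lie mostly to the right, with medians of 0.405 and 0.481.

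Mycn, an early progenitor gene of the MYC family, had the smallest adjusted p of all genes, but rose on 1 probe set of 3. The probe set 1425923_at gave 267, 269 and 282 in the controls and 6358, 8100 and 9090 with IRF4, a difference of 4.75 ± 0.12 (adjusted p = 1.62e-08 over genes). In contrast, 1417155_at gave 1377, 883 and 1134 against 1239, 900 and 978, a difference of -0.11, and 1425922_a_at had -0.06. The level of Mycn RNA therefore cannot be given a single direction from these data. Cd93, a marker of immature B cells, rose from 702, 719 and 673 to 2761, 2063 and 2137 (1.70 ± 0.13, adjusted p = 5.22e-05), and of its 5 probe sets only 1449521_at, with 0.17, was not called. Lmo2, a cofactor of progenitors that is also on in germinal centres, rose from 260, 316 and 201 to 721, 811 and 652 (1.45 ± 0.14, adjusted p = 0.000277). With Sox4, given above, Mycn, Cd93 and Lmo2 were the 4 called rises of 14 tested early B progenitor genes, against 1.92% of all genes. In this list 1 gene fell, against 1.01%, and the median was 0.0254. By limma's test 6 had an unadjusted p under 0.05 upward and 3 downward. Not called were Kit with 0.03, Flt3 with 0.02 and Dntt, the enzyme that adds bases at junctions, with -0.91 ± 0.53 and overlapping arrays. Gfi1, a repressor active in progenitors, fell by 0.58 ± 0.12 (adjusted p = 0.0346), a call lost without any IRF4 array, high IL-7 array 2 or 3 or low IL-7 replicate 2, at adjusted p up to 0.165.

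**Figure D4:**
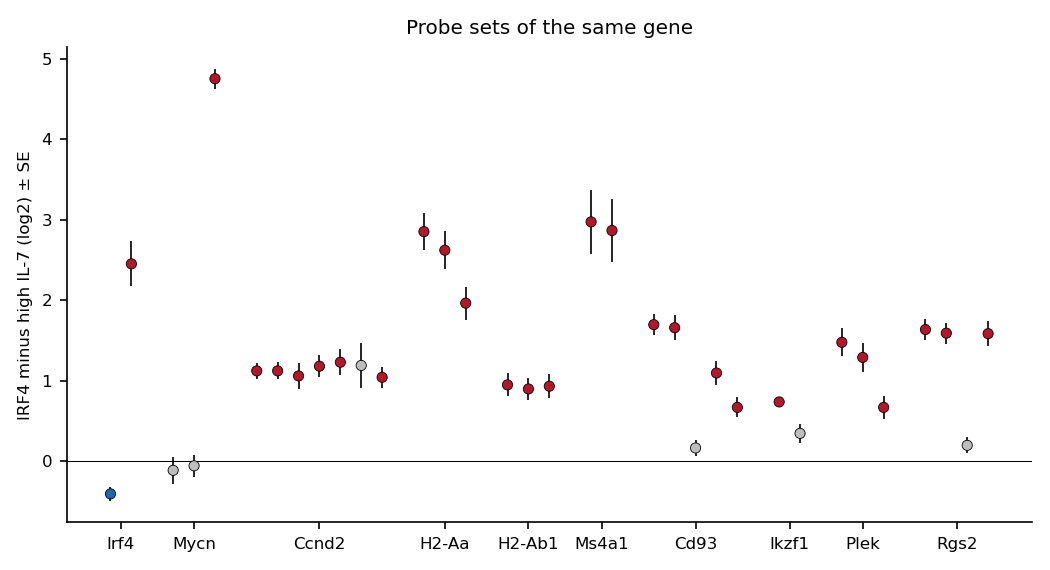
Difference between IRF4 and high IL-7 arrays (log2 scale, with SE bars) for every probe set above the filter of 10 genes. Red and blue points are called rises and falls over all probe sets and grey points were not called. The probe sets of Irf4 and Mycn disagree, while the 7 of Ccnd2 lie close together near 1.1.

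Most cell cycle genes were not called. Of 29 tested genes of DNA replication, 0 were called by limma's test and 4 had an unadjusted p under 0.05. Of 29 genes of mitosis 1 was called, while by limma's test 8 had an unadjusted p under 0.05 upward and 2 downward. The call was that of the spindle protein Nusap1 with 0.27 ± 0.06 (adjusted p = 0.0499). It was lost without any IRF4 array, high IL-7 array 2 or 3 or low IL-7 array 2 or 3, at adjusted p up to 0.182. Mki67, the proliferation marker, gave 6862, 6655 and 6534 against 7233, 7124 and 6303, a difference of 0.04 ± 0.06. The regulators of entry into the cycle did change: 6 of 19 tested rose, against 1.92% of all genes, and none fell, with a median of 0.212. Ccnd2, or cyclin D2, which pushes cells into division and answers to IL-7, gave 3491, 3123 and 2743 in the controls and 6288, 6621 and 7500 with IRF4. All IRF4 arrays were above all controls (1.12 ± 0.10, adjusted p = 0.000147), and its 7 probe sets had differences from 1.04 to 1.23, of which only 1416123_at was not called. Ccnd3, the cyclin of pre-B cell expansion, had 0.37 ± 0.15 and overlapping arrays (adjusted p = 0.267).

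Of the 6 rises in that list, 5 were in genes other than cyclin D2, and without IRF4 replicate 2 the list had 4. Btg1, an antiproliferative gene, went from 2622, 3348 and 2477 to 5903, 5955 and 5555 (1.05 ± 0.10, adjusted p = 0.000245). Rb1, the retinoblastoma protein that D cyclins inactivate, went from 676, 762 and 704 to 1513, 1585 and 1504 (1.09 ± 0.12, adjusted p = 0.00042). The CDK4/6 inhibitors Cdkn2d and Cdkn2c rose by 0.84 ± 0.10 and 0.49 ± 0.08, and Ccng2, an atypical cyclin of resting cells, by 0.51 ± 0.11. The call of Cdkn2c was lost without IRF4 replicate 2 (adjusted p = 0.0523). That of Ccng2 was lost without high IL-7 array 1 or 3, IRF4 replicate 1 or 2 or low IL-7 array 2 or 3, at adjusted p up to 0.119. Cdkn1a, by contrast, had -0.75 ± 0.18 with separate arrays and an adjusted p of 0.0529. Among the p53 targets Trp53inp1 rose by 0.71 ± 0.07, and Gadd45a had 0.55 ± 0.11, with a call lost without any of the high IL-7 arrays, IRF4 replicate 2 or low IL-7 replicate 3, at adjusted p up to 0.139.

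Genes of IL-7 signalling changed little. Of 15 tested, Ccnd2 rose and Cish fell. Cish, a feedback inhibitor induced by STAT5, gave 1575, 1621 and 1808 in the controls and 1366, 1114 and 984 with IRF4 (-0.54 ± 0.12, adjusted p = 0.041). This call did not survive the loss of any high IL-7 or low IL-7 array, nor of IRF4 replicate 2 or 3, at adjusted p up to 0.187. Il7r, the receptor's own chain, had 0.42 ± 0.11 with separate arrays and was not called (adjusted p = 0.0889). Stat5a had -0.07, Pim1 -0.03 and Myc -0.39 ± 0.17, with overlapping arrays in each. Low IL-7 moved Cish by -1.98, Myc by -2.66 and Il7r by 2.83.

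Of the lists of growth and metabolism given here, only that of glycolysis and glucose uptake had calls. All 17 of its tested genes had a difference below 0, with a median of -0.362, and 12 had an unadjusted p under 0.05 by limma's test. It had 2 called falls, 11.8% of the list against 1.01% of all genes. They were the glucose transporter Slc2a1 (-0.53 ± 0.10, adjusted p = 0.0184) and hexokinase Hk2 (-0.45 ± 0.10, adjusted p = 0.0472). Leaving out replicate 2 or 3 of either group ended both calls, at adjusted p up to 0.0956 and 0.199, and leaving out any low IL-7 array ended that of Hk2. Without IRF4 replicate 1 the list had 7 falls. Of 31 ribosome biogenesis genes 0 were called by limma's test and 10 had an unadjusted p under 0.05, with a median of -0.145, where low IL-7 lowered all 31 with a median of -1.29. The lists for cholesterol synthesis and amino acid supply had medians of -0.202 and -0.194 and 0 calls of 20 and 22 by limma's test, where 5 and 7 genes had an unadjusted p under 0.05. Without IRF4 replicate 1, 5 amino acid genes fell. Without both arrays of low 18S signal these medians were -0.246 for glycolysis, -0.0927 for ribosome biogenesis, -0.00707 for cholesterol and -0.101 for amino acids. By the same test, oxidative phosphorylation had 0 calls of 23 (0 at an unadjusted p under 0.05, median -0.0235) and the BCL2 family 0 of 14 (4 at an unadjusted p under 0.05, median 0.0784).

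Genes of the leukocyte cytoskeleton and its regulators gave isolated rises. Lsp1, an actin-binding protein of leukocytes, gave 121, 224 and 139 in the controls and 933, 2124 and 1652 with IRF4. Every IRF4 array was above every control, at 8.72-fold (3.13 ± 0.28, adjusted p = 0.000118). Plek, or pleckstrin, rose from 202, 246 and 209 to 459, 830 and 673 (1.48 ± 0.18, adjusted p = 0.000939). Rgs2, which shortens G protein signals, rose from 415, 530 and 439 to 1269, 1707 and 1442 (1.64 ± 0.13, adjusted p = 6.43e-05). With Rhoh (0.36 ± 0.08) these were the 4 called rises of 25 tested, against 1.92% of all genes. Leaving out any IRF4 or high IL-7 array, or low IL-7 array 2 or 3, ended the call of Rhoh, at adjusted p up to 0.227.

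Of 21 tested chemokine receptor and adhesion genes, 4 rose and 2 fell, against 1.92% and 1.01% of all genes. Among them were the receptors Ccr7, Cxcr4 and S1pr1, which rose, and Cxcr5, which fell. Ccr7, the receptor that draws lymphocytes into lymph nodes, gave 185, 169 and 129 in the controls and 418, 481 and 515 with IRF4, well apart (1.47 ± 0.13, adjusted p = 9.9e-05). Cxcr4, which holds precursors in the bone marrow, went from 1445, 876 and 1011 to 2214, 2157 and 3108 (1.17 ± 0.18, adjusted p = 0.00602). S1pr1, the receptor for exit into blood, rose by 0.59 ± 0.10 and the adhesion molecule Cd48 by 0.93 ± 0.15. Cxcr5, the receptor for B cell follicles, fell from 1426, 1033 and 1042 to 783, 619 and 554 (-0.82 ± 0.15, adjusted p = 0.0144), and the tetraspanin Cd9 fell by 0.64 ± 0.10. The call of S1pr1 was lost without high IL-7 replicate 3 or IRF4 replicate 2 (adjusted p up to 0.0519), and that of Cxcr5 without IRF4 replicate 2 or 3 (adjusted p up to 0.0679). The latter was also lost on the 6 arrays alone and without both arrays of low 18S signal. The G protein-coupled receptor Gpr18 went from 50.9, 52.7 and 50.6 to 262, 529 and 437 (2.60 ± 0.19). Another such receptor, Gpr171, went from 66.9, 146 and 93.2 to 278, 724 and 913 (2.37 ± 0.50, adjusted p = 0.0306). That call ended when IRF4 replicate 2 or 3, high IL-7 array 1 or 3 or low IL-7 replicate 2 was left out, at adjusted p up to 0.216. The controls of both receptors lay below the filter.

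Innate and inflammatory genes gave isolated rises. Gbp3, a guanylate-binding protein induced by interferon, gave 154, 205 and 126 in the controls and 771, 928 and 936 with IRF4, 5.10-fold higher (2.35 ± 0.19, adjusted p = 6.76e-05). It was the only called member of 29 tested interferon-stimulated genes, whose median was 0.184. The median moved both ways with single arrays, to 0.505 without IRF4 replicate 2, 0.441 without high IL-7 replicate 2 (then with 3 rises), 0.013 without high IL-7 replicate 3, -0.0681 without IRF4 replicate 3 and -0.115 without both arrays of low 18S signal. Pld4, a nuclease of the phospholipase D family, went from 67.7, 72.4 and 60.6 to 429, 557 and 434, a difference of 2.55 ± 0.11. It was below the filter in high and low IL-7 and passed only through the IRF4 arrays, so its p is not read. Unc93b1, which carries nucleic acid-sensing Toll-like receptors to their compartment, rose by 1.04 ± 0.10, as 1 of 15 genes of its list. In the NF-kB list 2 of 17 rose, against 1.92% of all genes. Birc3 rose by 0.64 ± 0.09 on its brightest probe set (-0.02 on another, 0.31 for their mean) and the inhibitor Nfkbie by 0.54 ± 0.09. The call of Nfkbie was lost without high IL-7 replicate 3 or IRF4 replicate 2, at adjusted p up to 0.0599. Snn, or stannin, rose from 1247, 858 and 896 to 3912, 4217 and 4578 (2.08 ± 0.14, adjusted p = 2.87e-05) on 1 probe set, while its second probe set had 0.06.

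The 12 largest falls came next. Scn4b, a sodium channel subunit, gave 536, 503 and 543 in the controls and 197, 151 and 144 with IRF4, well separated (-1.61 ± 0.12, adjusted p = 5.09e-05). Fcer1g, the signalling chain shared by Fc receptors, went from 573, 384 and 332 to 140, 148 and 158 (-1.40 ± 0.18, adjusted p = 0.00167). Ifitm1, an interferon-induced membrane protein, went from 4877, 5393 and 3776 to 1864, 1238 and 925, 3.56-fold lower (-1.83 ± 0.21, adjusted p = 0.00073). Tubb3, a beta-tubulin best known from neurons, went from 2247, 1441 and 1431 to 652, 531 and 737 (-1.37 ± 0.20, adjusted p = 0.00303). The lectin-like gene Clec2i had -1.23 ± 0.14 and Cracdl -1.32 ± 0.15, both called, the latter at a level below the filter with IRF4.

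For the rest of the 12 largest falls the groups did not overlap, but the call was lost in some fits with 1 array left out. Nckap1, part of the WAVE complex that drives actin branching, gave 406, 539 and 506 in the controls and 287, 82.2 and 97.5 with IRF4. IRF4 replicate 1, the array with the higher fibroblast marker sum in its group, was the highest of the 3 in Nckap1, Septin8, Nol4l, Kcnk1 and Mc1r, and the part of fibroblast RNA in those falls was not tested. In the high IL-7 arrays Nckap1, Septin8 (261, 448 and 375) and Nol4l (370, 461 and 393) followed the order of the fibroblast marker sums, replicate 1 lowest and replicate 2 highest. The order was not the same for all: replicate 1 was the highest there for Kcnk1 (1274 against 854 and 966) and Mc1r (888 against 389 and 492). Adjusted p reached 0.0959 for Nckap1 (difference -1.73, lost without replicate 2 or 3 of either group). It reached 0.16 for Septin8 (-1.22, lost without the same arrays or any low IL-7 array) and 0.241 for the potassium channel gene Kcnk1 (-1.38, lost without any high IL-7 array, IRF4 replicate 2 or 3 or low IL-7 replicate 3). For Nol4l (-1.53) it reached 0.0611 without IRF4 replicate 2, for the melanocortin receptor Mc1r (-1.67) 0.0619 without IRF4 replicate 3, and for the protease inhibitor Cst7 (-1.28) 0.0918 without IRF4 replicate 2 or 3.

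Markers of other cells were read beside these results. Of 7 tested myeloid markers Fcer1g was called, and their sums were 1404 to 1622 in high IL-7 and 1151 to 1304 with IRF4. Lyz2, at 118, 128 and 123 against 125, 119 and 129, and Csf1r and Cd14 with differences of 0.04 and 0.05 were not called. Of 7 T cell markers only Cd2, which B cells also express, rose (0.998 ± 0.15, adjusted p = 0.00373), with sums of 3047 to 3778 against 2778 to 3178. Thy1 (-0.48 ± 0.12, adjusted p = 0.0789) and Lat (-0.95 ± 0.28, adjusted p = 0.12) had separate arrays downward and were not called, and Cd3e had 0.04. The 5 erythroid and megakaryocyte markers summed to 15290 to 15850 and 10260 to 10970, with a median difference of 0.0405. Most of these sums was Car2, carbonic anhydrase, at 14899, 14381 and 14174 against 9236, 9882 and 9681. It was their only call and fell by 0.59 ± 0.05 (adjusted p = 0.000122), while Pf4 had 0.04. The 8 dendritic and NK cell markers had 0 calls by limma's test and 0 at an unadjusted p under 0.05, with sums of 1784 to 2544 and 1848 to 2367. The part of any other cell type in the class II rises was not tested, and in bulk RNA fewer cells of a type and less RNA per cell cannot be told apart.

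Set beside low IL-7, the called genes divide. Both comparisons use the same high IL-7 arrays, so agreement between them is partly built in and is not given as a result. Low IL-7 called 4783 genes, or 37.3%. Of the 246 genes that rose with IRF4, 158 also rose in low IL-7, 72 were not called and 16 fell. Of the 130 that fell with IRF4, 55 fell, 44 were not called and 31 rose. For the 16 and the 31 in opposite directions, the choice of genes fixes the sign of the direct contrast of IRF4 with low IL-7, which is given below as a size only.

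The opposed rises held B cell genes. Ms4a1 had 2.97 with IRF4 and -2.69 in low IL-7, and the direct contrast was 5.66. Ccnd2 had 1.12 and -3.03, with a direct contrast of 4.15, and Btla had 1.35 and -1.77, with 3.11. Tnfrsf13c, Plek, Ctss and Bcl11a were of the same kind, with -0.84, -0.78, -0.72 and -0.84 in low IL-7. Among the opposed falls Scn4b had -1.61 with IRF4 and 2.45 in low IL-7, Fcer1g -1.40 and 1.49, Cracdl -1.32 and 0.91, Cd72 -0.51 and 1.13, and Cd9 -0.64 and 0.81. In Tubb3 and Mc1r both were negative, with -3.72 and -3.09 in low IL-7. Where both were positive, some genes ended at like levels: the direct contrast was 0.00 for Cxcr4, 0.02 for Rb1, 0.08 for Mef2c, -0.03 for Syk and -0.28 for Blk, none of them called, which does not show that the levels are equal.

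**Figure D5:**
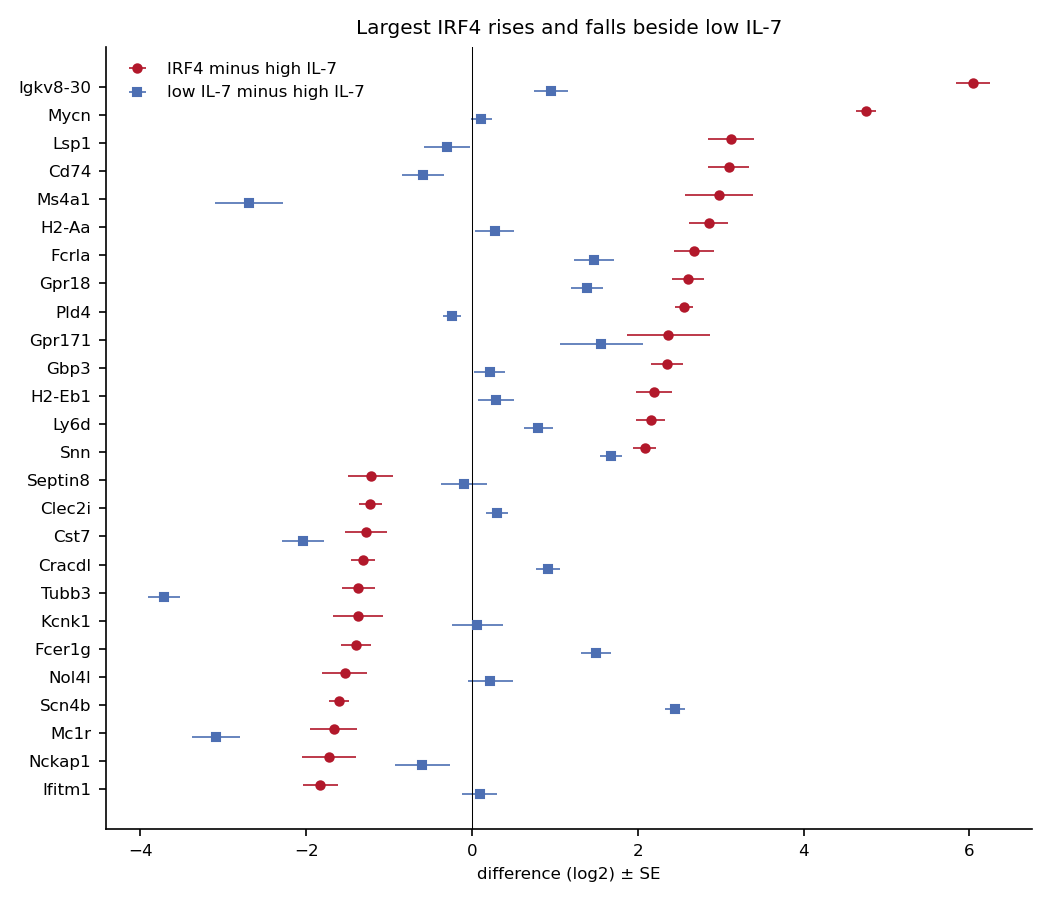
The 14 largest rises and 12 largest falls with IRF4 (red circles) beside low IL-7 minus high IL-7 for the same gene (blue squares), both on the log2 scale with SE bars. Both differences share the high IL-7 arrays. Ms4a1 and Scn4b lie on opposite sides of 0 and Tubb3, Mc1r and Cst7 on the same side.

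Letter patterns bound by IRF4 were then looked for in promoters. RefSeq's promoter table of GRCm38.p6, with 250 bases before and 50 after each start, held 10361 of the tested genes. The ETS-IRF core GGAANNGAA was found on either strand in 8.83% of them, in 12.9% of the 186 called rises with a promoter, in 20.4% of the 54 rises of at least 2-fold and in 9.17% of the 109 called falls. The interferon core GAAANNGAA was found in 8.24%, 7.53%, 11.1% and 5.5% of the same sets, and a site can match both cores. Shown are 3 rises of at least 2-fold with each core before the start, 41 bases in which capitals mark the core. They were taken by size, but promoters on a single chromosome were left out of the choice. A larger rise there would not be shown. Diras2, a Ras-like gene, is at chr13:52531044-52531084 on the minus strand, the NF-kB pathway adaptor Tifa at chr3:127790416-127790456 and Slfn2, a Schlafen gene of lymphocytes, at chr11:83065038-83065078, both on the plus strand, and these 3 hold the ETS-IRF core. Fcrla at chr1:170927751-170927791 and Gpr18 at chr14:121915905-121915945, both on the minus strand, and Gbp3 at chr3:142559984-142560024 on the plus strand hold the interferon core, which in Gbp3 occurs in overlapping copies.
Diras2: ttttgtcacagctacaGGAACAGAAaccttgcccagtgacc
Tifa: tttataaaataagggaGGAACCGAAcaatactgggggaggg
Slfn2: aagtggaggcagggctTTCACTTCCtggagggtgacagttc
Fcrla: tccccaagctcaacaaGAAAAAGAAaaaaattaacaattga
Gpr18: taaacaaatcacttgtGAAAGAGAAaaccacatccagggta
Gbp3: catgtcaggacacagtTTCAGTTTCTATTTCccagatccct
Of the genes in this group not yet given, Tifa went from 414, 370 and 395 to 1282, 1596 and 1760 (1.92 ± 0.13), Diras2 from 54.5, 141 and 66.5 to 213, 643 and 339 (1.96 ± 0.36) and Slfn2 from 211, 385 and 227 to 517, 683 and 979 (1.36 ± 0.26). In Diras2 the high IL-7 group lay below the intensity filter of 106.5, so that the size depends on the added 16. The call of Diras2 was lost without high IL-7 replicate 3 or IRF4 replicate 3 (adjusted p up to 0.107). That of Slfn2 was lost when high IL-7 array 1 or 3 or IRF4 replicate 2 or 3 was left out (adjusted p up to 0.113). Both calls were also lost on the 6 arrays alone and without both arrays of low 18S signal. A match describes the letters in this window and is not a measured binding site, and these shares have no test.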

How the data were processed

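Total RNA for 9 Affymetrix mouse arrays was purified with Trizol followed by a column and biotin-labelled, per the labels' protocols. The authors deposited linear intensity values for 45101 probe sets, and the labels do not state how these were summarised, scaled or filtered. No detection calls were used, and no normalization was added. Symbols are those of the platform annotation, in which 34945 probe sets had 1 symbol, 932 several and 9160 none, besides 64 controls, and 34741 symbols were matched by identifier to RefSeq. Probe sets without a single symbol stayed out of the gene tests.

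Values were taken as log2(intensity + 16). The filter kept a probe set whose mean log2 value over 9 arrays was at least the 40th percentile (an intensity of 106.5), and each gene was represented by its brightest one. limma 3.58.1 in R 4.3.3 fitted the 3 group means over all 9 arrays with a trend, leaving 6 residual degrees of freedom before moderation. Adjusted p-values are over all genes, or all probe sets where said. The procedure was tested on simulated data. Python 3.11.15 and matplotlib 3.10.9 drew the figures.

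The members of the comparison, the 37 gene lists and the tests were chosen with earlier results of these data known. Genes were named by rule: the 14 largest called rises and 12 largest called falls, up to 4 called members of each list by p, all tested members of the class II, pre-B receptor, IRF and immunoglobulin lists, and a set of further regulators. Other called members and sequences' genes were named after their values were seen. Alternatives covered the pseudocount, filter, scaling, probe set rule, arrays fitted, variance model, array weights and each array left out.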

Additional observations from a re-analysis of the deposited data

Results flagged for a closer look

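Probe sets that carry several gene symbols or none were outside the comparison of genes, and 75 of the 4302 above the filter passed the test there, 31 up and 44 down. Those listed here had the largest differences. The probe sets 1452417_x_at, 1427660_x_at and 1427455_x_at, each with several kappa segment symbols, had differences of 6.03, 5.67 and 5.01 between IRF4 and high IL-7. The first gave 45.5, 46.2 and 52.5 in the control arrays and 3438, 4519 and 4693 in the IRF4 arrays, and 179, 237 and 189 in low IL-7. The probe set 1433741_at, without a symbol, had a difference of 3.75, from 66.0, 55.7 and 62.7 to 879, 1292 and 938. The largest fall was that of 1442514_a_at, with several symbols, at -1.92, from 483, 418 and 401 to 96.6, 103 and 108. All 5 were separate between the groups in every array.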

How the results depend on the processing

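Of 376 called genes, 132 were called in all 21 alternatives and 166 without any 1 array; of 72 called genes named by rule, 52 were called throughout. The count was 222 on the 6 arrays alone and 3248 with array weights, and with 1 array left out it ran from 191 to 615. At 2-fold or more it was 105, with 204 under array weights and 86 to 169 with 1 array left out. A common median for all arrays gave 247 rises and 90 falls, where 65.4% of calls rose before. Same-numbered arrays of both groups deviated from their group means with r of -0.3534, -0.1052 and -0.3661. With a replicate block 437 genes were called, 252 of them up. The labels do not say whether the numbers pair the arrays, and so few values cannot decide it. Irf4 turned to 1.0249 when its probe sets were averaged, since they oppose each other. The difference of its dimmer probe set lay between 2.1053 and 2.7118 with 1 array left out. Otherwise the cause of these changes was not tested. Of 36 named genes not called, 15 passed in no alternative. Without detection calls, signal over background limits what can be said of genes under the filter in 1 group, 25 of those called.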
